A study of Mus musculus with 9 samples.

Results

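The messenger RNAs of the tubulins and of the proteins that fold and assemble them were measured in Lewis lung carcinoma (LLC) cells, a mouse lung tumour line, with and without an intact Cd47 gene. The 40 members were the protein-coding genes, among 50813 gene rows, that are named as an alpha-, beta- or gamma-tubulin, a subunit of the chaperonin CCT (Tcp1 and Cct2 to Cct8), a subunit of prefoldin (Pfdn genes and Vbp1), a tubulin cofactor (Tbca to Tbce), or one of the CCT partners Pdcl, Pdcl3 and Txndc9. The rule uses gene names and no measured value, although it was set with earlier results of these data known. RNA was sequenced from cultures grown in DMEM with fetal bovine serum, with 3 libraries each for WT cells and for the CD47 KO clones E3 and E5. All carry luciferase, since the parental LLC line was bought with it stably expressed. The KO clones were made by electroporating Cas9 ribonucleoprotein aimed at the Cd47 coding sequence and expanding single cells. Each KO line is 1 clone and the WT cells are 1 line, so that genotype and clone cannot be told apart, and p-values measure the spread between the libraries of a line. The polyA-selected libraries held 44257404 to 55095219 counts each, and levels are given as TMM-scaled CPM, that is, counts brought to a common library total.

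Microtubules are polymers of alpha- and beta-tubulin heterodimers, and gamma-tubulin starts their growth. A newly made tubulin chain cannot fold by itself. Prefoldin, a jellyfish-shaped holdase, passes it to CCT, a chaperonin of stacked rings that also folds actin, and the released monomers are joined into heterodimers by the tubulin cofactors. Cells also adjust tubulin synthesis to need, since an excess of soluble heterodimer triggers decay of tubulin mRNAs while they are being translated. Several tubulin isotypes, such as Tubb5 and Tuba1b, are made by most dividing cells, whereas Tubb3 is best known from neurons, Tubb1 from platelets and the Tuba3 genes from testis.

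The labels were checked on Cd47, which was at 182 ± 3.92 CPM in WT cells, 44.6 ± 6.87 CPM in clone E3 and 17.4 ± 1.66 CPM in clone E5 (mean ± SD, n = 3). Of the defining epithelial and lung markers, Epcam, Nkx2-1 and Sftpc were at 0 in all 9 libraries, and Cdh1 did not exceed a mean of 0.0495 CPM. Krt8 averaged 191, 38.1 and 370.4 CPM and Vim 4166, 5480.1 and 6571 CPM in WT, E3 and E5 cells. Means for leukocyte (Ptprc, Cd3e), endothelial (Pecam1, Cdh5) and germ cell (Ddx4, Prm1) markers and for the neuronal marker Rbfox3 were at most 0.0644 CPM. Replicate 3 of clone E3 stood apart from its line. A chi-square statistic of counts over all genes, divided by its degrees of freedom, was 185 and 222 for its pairs with the other E3 libraries, against 4.68 to 37.1 for every other pair of replicates. Results for the members that depend on it are therefore given with and without it. The other gene lists are given with all libraries only. RNA came from whole cultures, in which fewer cells making an mRNA and less of it per cell cannot be told apart.

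The tubulin genes are so alike that their sequences limit what the counts can say. Over the whole coding sequence Tuba1a was 98.3% identical to Tuba1b, with a longest identical run of 281 bases, and Tuba1c was 97.9% identical with a run of 468 bases. Reads inside such runs cannot be assigned to 1 of the genes, and how the authors' counting treated them is not given in the sources used here, so the split of counts among Tuba1a, Tuba1b and Tuba1c is uncertain while their sum is less so. Tuba4a, at 85.2% identity with a longest run of 29 bases, and Tuba8, at 79.6% with 32 bases, were more distinct. The last 60 coding bases, stop codon included, are shown for the 4 beta-tubulins whose levels changed in at least 1 comparison, because this stretch encodes the tail that differs most between isotypes. Capitals mark bases that differ from, or have no counterpart in, the Tubb5 stretch. They were read from the GRCm39 genome at chr17:36145874-36145933 (minus) for Tubb5, chr2:25112320-25112379 (minus) for Tubb4b, chr13:34311454-34311513 (minus) for Tubb2b and chr8:124148362-124148421 (plus) for Tubb3.
Tubb5: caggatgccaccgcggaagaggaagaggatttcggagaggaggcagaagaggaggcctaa
Tubb4b: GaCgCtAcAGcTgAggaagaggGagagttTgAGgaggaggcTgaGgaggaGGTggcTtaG
Tubb2b: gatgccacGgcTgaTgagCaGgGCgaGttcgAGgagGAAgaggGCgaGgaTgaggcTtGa
Tubb3: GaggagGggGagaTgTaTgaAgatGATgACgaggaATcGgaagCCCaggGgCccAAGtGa

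Tubb4b, Tubb2b and Tubb3 were 81.4% to 83.9% identical to Tubb5 over the coding sequence, with longest identical runs of 26 to 50 bases. Their reads were thus easier to tell from those of Tubb5 than reads among the Tuba1 genes. Tubb2b was not compared with Tubb2a, so how far these genes share reads is not known here. Tubb3, Tuba1a and Tuba1b each overlap another annotated gene, and the strand setting of the counting is not given in the sources used here.

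Summed alpha- and beta-tubulin mRNA was higher in every KO library than in any WT library. The CCT and prefoldin sums of E3 replicate 3, at 4868 and 472 CPM, lay above every WT library. Those of the other E3 libraries lay below every WT library. Summed over alpha-tubulins, the level was 1034 ± 67.7 CPM in WT cells, 1698 ± 345 CPM in clone E3 and 1461 ± 269.6 CPM in clone E5 (mean ± SD, n = 3). The beta-tubulin sum was 1526 ± 81.0, 2492 ± 266 and 2429.6 ± 214 CPM, which is 1.63 and 1.59 times the WT level in E3 and E5. The CCT sum was 4619.6 ± 99.3 CPM in WT cells, 4379.5 ± 463 CPM in clone E3 and 5291 ± 56.6 CPM in clone E5, whose libraries lay above those of both other lines. Prefoldin summed to 366 ± 21.8, 368 ± 90.3 and 376 ± 3.96 CPM and the cofactors to 303 ± 5.54, 342 ± 46.1 and 307 ± 7.16 CPM. Without replicate 3, the E3 libraries lay below every WT library, at 3948 and 4322.5 CPM against 4511 to 4706 CPM for CCT and at 309 and 322 CPM against 345 to 388 CPM for prefoldin. The ratio of summed alpha- and beta-tubulin to summed CCT was 0.515, 0.562 and 0.587 in the WT libraries, 0.893, 0.999 and 0.971 in clone E3 and 0.809, 0.751 and 0.644 in clone E5. The 3 lines did not overlap in this ratio, and E3 was highest. These sums are descriptions without a test.

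**Figure D1:**
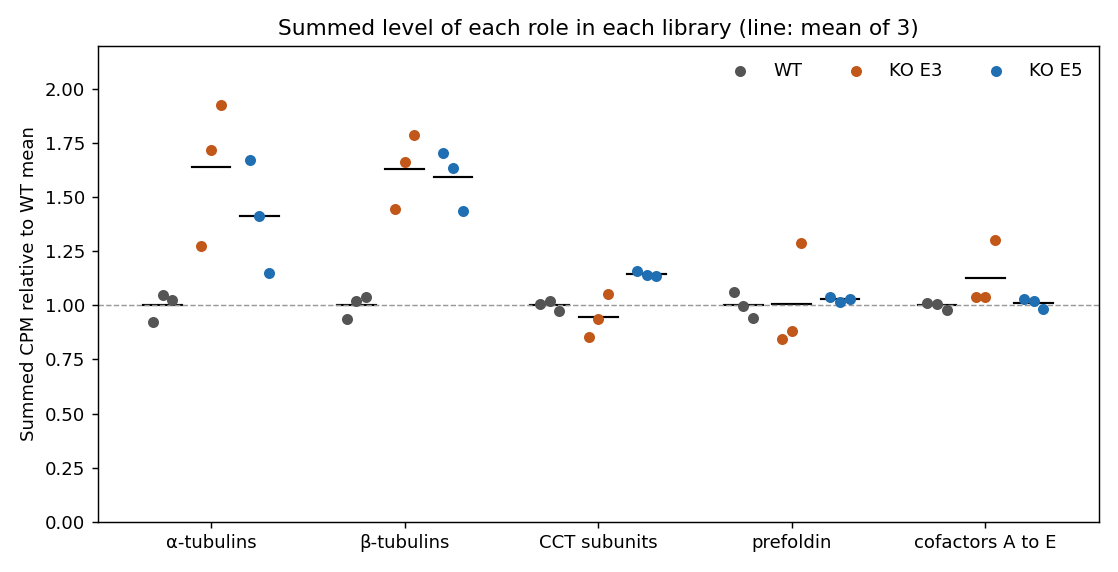
Summed CPM of each role group relative to the WT mean, with 1 point per library and the mean of each line. Alpha- and beta-tubulin sums lie above WT in all 6 KO libraries, and the CCT sum lies above WT in clone E5.

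For the gene by gene comparison, clone E3 and clone E5 were each compared with WT cells, and with each other, by the quasi-likelihood test of edgeR, adjusted by Benjamini-Hochberg over 14593 genes, and a gene is said to have changed at an adjusted p under 0.05. Of the 40 members, 37 passed the filter on low counts. Tuba3a, Tuba3b and Tubb1 had 0 counts in all 9 libraries, where a limit of 3 counts corresponds to 0.0605 CPM in WT replicate 1. In clone E3, 8 of the 37 members were higher than in WT cells (21.6%, against 15.7% of all genes) and 2 were lower (5.41%, against 14.7%). In clone E5, 4 were higher (10.8%, against 8.96%) and 2 lower (5.41%, against 11.7%), or 3 and 3 with upper-quartile scaling. With an absolute log2 fold change above 1 required as well, the study's rule for a differentially expressed gene, 3 members passed in E3 (Tuba1a, Tuba8 and Tubb2b; 8.11%, against 9.82% of all genes) and 2 in E5 (Tuba1a and Tubb3; 5.41%, against 8.21%). In both directions together, 27.0% of the members and 30.5% of all genes were called in E3, and 16.2% and 20.6% in E5. For E5 against WT, DESeq2 called 14 members (37.8%, against 25.2% of all genes) and the fit of only these lines 19 (51.4%, against 46.8%), so the order of these shares depends on the fit. Among the 12 alpha- and beta-tubulins tested, 7 rose and 1 fell in E3 with a median log2 fold change of 0.66, and 3 rose and 1 fell in E5 with a median of 0.49, beside medians over all genes of 0.01 and -0.00. DESeq2 called 8 of the 12 in each clone.

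**Figure D2:**
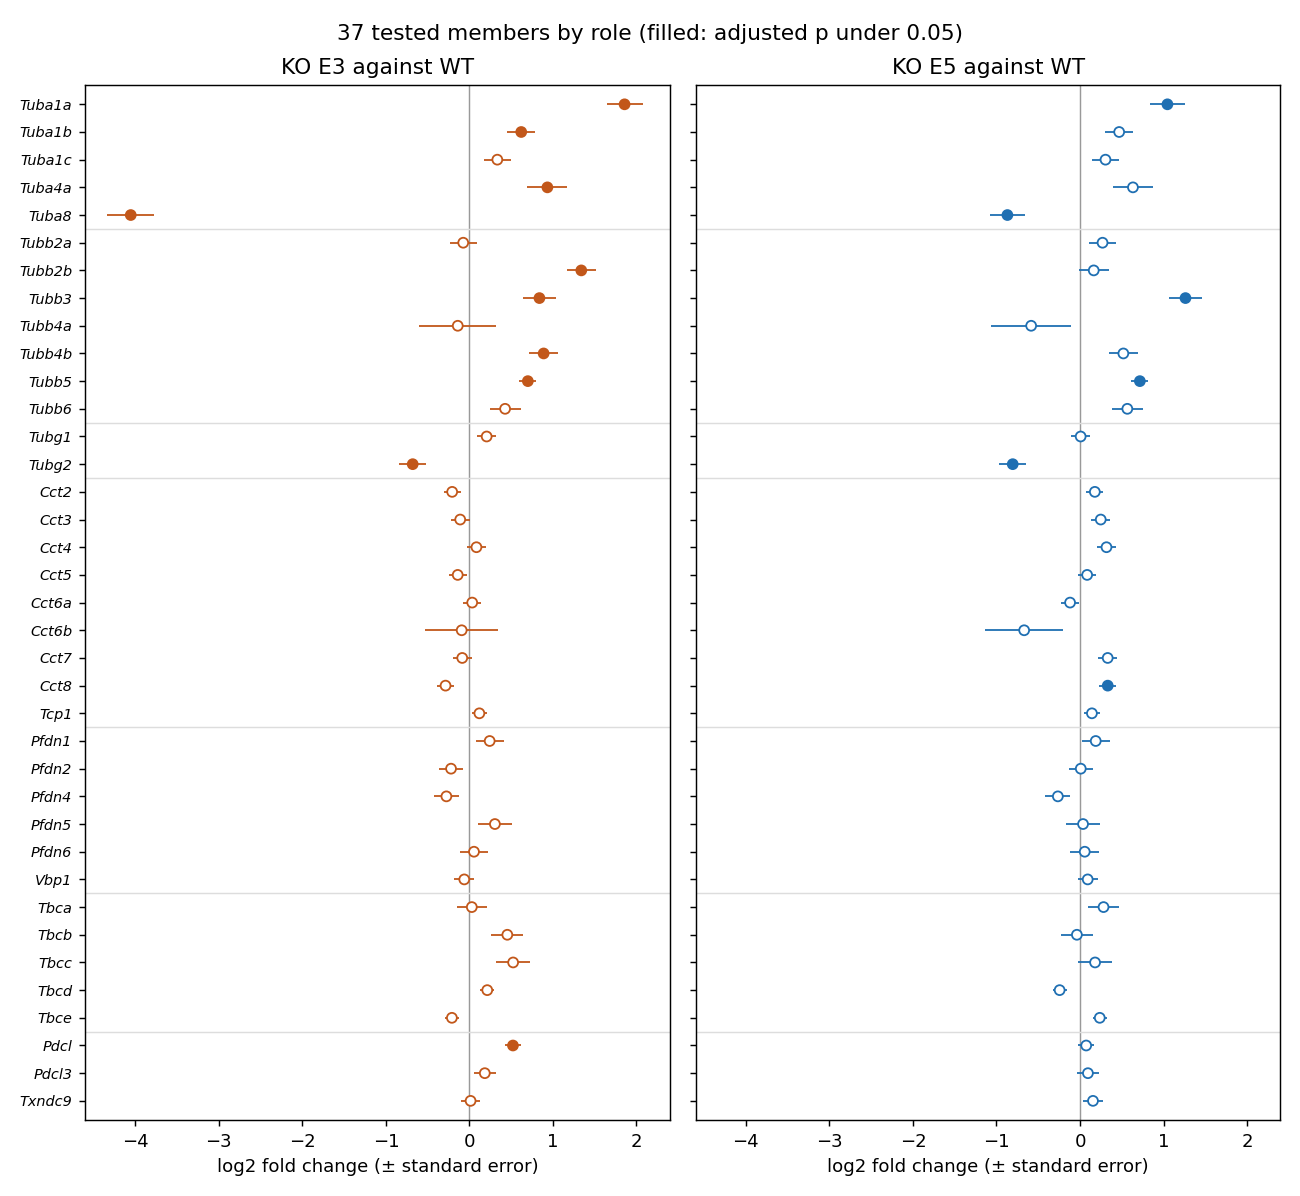
Log2 fold change against WT, with its standard error, of the 37 tested members in clone E3 and clone E5, ordered by role. Tuba1a lies at 1.86 in E3 and 1.05 in E5, Tubb5 at 0.70 and 0.72, and Tuba8 at -4.05 and -0.87. No CCT, prefoldin or cofactor gene was called in E3 in the edgeR fit shown.

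Tubb5 (ENSMUSG00000001525.11, chromosome 17 from 36144813 to 36149198 of GRCm39), the main beta-tubulin of dividing cells, rose in both clones. Tubb5 was measured at 1052, 1128 and 1149 CPM in the WT libraries, 1663, 1759 and 1986 CPM in KO clone E3 and 1874, 1880.1 and 1717 CPM in KO clone E5. All KO libraries lay above all WT libraries, and the clones overlapped. On the log2 scale the change was 0.70 (standard error 0.10, adjusted p = 0.00073) in E3, a 1.62-fold increase, and 0.72 (standard error 0.10, adjusted p = 0.000761) in E5, a 1.64-fold increase, and the difference between the clones was 0.02 (standard error 0.10, adjusted p = 0.917). It was the most abundant beta-tubulin per kilobase of exon in every line.

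Tuba1a (ENSMUSG00000072235.7, chromosome 15 from 98847718 to 98851584), an alpha-tubulin best known from developing neurons, showed the largest fold increase of the members in E3. Tuba1a was measured at 61.8, 62.1 and 58.4 CPM in the WT libraries, 183, 220.1 and 258 CPM in KO clone E3 and 168, 123 and 86.3 CPM in KO clone E5. The lines did not overlap, and E3 was highest. Its log2 fold change was 1.86 (standard error 0.22, adjusted p = 0.000192) in E3, or 3.62-fold, and 1.05 (standard error 0.21, adjusted p = 0.00591) in E5, or 2.07-fold. E5 minus E3 was -0.81 (standard error 0.21, adjusted p = 0.0143), a difference no longer called without E5 replicate 2. Within clone E5 the Tuba1a values ranged from 86.3 to 168 CPM, more than in the other lines relative to their means.

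The alpha-tubulin Tuba1b, the most abundant of its family per kilobase, and Tuba4a changed in E3, while in E5 their calls depended on the fit. Tuba1b was measured at 721, 817 and 797 CPM in the WT libraries, 926, 1248 and 1416 CPM in KO clone E3 and 1252, 1080.4 and 899 CPM in KO clone E5. No KO library fell within the WT range. Its log2 fold change came to 0.62 (standard error 0.17, adjusted p = 0.0179) in E3 and 0.47 (standard error 0.17, adjusted p = 0.0725) in E5. The E3 call for Tuba1b was lost when any 1 of the WT libraries was left out. Tuba4a was measured at 48.8, 57.8 and 61.0 CPM in the WT libraries, 78.4, 124 and 118 CPM in KO clone E3 and 115, 86.7 and 58.2 CPM in KO clone E5. E5 replicate 3 lay within the WT range and the other KO libraries above it. The log2 fold change of Tuba4a was 0.93 (standard error 0.24, adjusted p = 0.0142) in E3, lost without WT replicate 1, and 0.63 (standard error 0.24, adjusted p = 0.0874) in E5. In E5 against WT, Tuba1b and Tuba4a were called by DESeq2, without a filter on low counts, with only these lines in the fit, without E3 replicate 3 and without E5 replicate 3. Tuba1b was also called there without E3 replicate 1. Tuba1c, for which log2 fold changes were 0.33 and 0.31, was not called in either clone with all libraries in the fit. It was called in E3 without E3 replicate 1, and in E5 with only E5 and WT in the fit.

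Tubb4b, a beta-tubulin found in many cell types and in cilia, rose in E3. Tubb4b was measured at 242, 256 and 251 CPM in the WT libraries, 355, 522 and 510.1 CPM in KO clone E3 and 433, 355 and 286 CPM in KO clone E5. No KO library overlapped WT. On the log2 scale it changed by 0.89 (standard error 0.17, adjusted p = 0.00362) in E3 and 0.52 (standard error 0.17, adjusted p = 0.0589) in E5, and E5 minus E3 was -0.37 (standard error 0.17, adjusted p = 0.13). Tubb6, a beta-tubulin for which the log2 fold change was 0.43 (standard error 0.19, adjusted p = 0.11) in E3 and 0.57 (standard error 0.19, adjusted p = 0.0561) in E5, did not pass the test. The 5 alternatives named for Tuba1b and Tuba4a also called Tubb4b and Tubb6 in E5. Without E3 replicate 1, Tubb4b was called in E5 as well.

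Among the weakly expressed beta-tubulins, Tubb3 rose in both clones and Tubb2b in E3. Tubb3 was measured at 2.32, 3.72 and 2.95 CPM in the WT libraries, 5.30, 4.94 and 5.85 CPM in KO clone E3 and 6.79, 8.72 and 6.10 CPM in KO clone E5. Both clones lay above WT and E5 was above E3 in every library. The log2 fold change of Tubb3 was 0.84 (standard error 0.20, adjusted p = 0.00914) in E3 and 1.26 (standard error 0.20, adjusted p = 0.0012) in E5, with E5 minus E3 at 0.42 (standard error 0.19, adjusted p = 0.113). Neuronal Snap25 was at 0.936, 1.02 and 0.936 CPM in WT, E3 and E5 cells and Rbfox3 near 0. Tubb2b was measured at 2.08, 1.91 and 2.30 CPM in the WT libraries, 5.42, 4.94 and 5.58 CPM in KO clone E3 and 2.87, 2.34 and 1.87 CPM in KO clone E5. For this isotype, also best known from neurons, E3 lay above both other lines, which overlapped. Its log2 fold change was 1.34 (standard error 0.17, adjusted p = 0.000358) in E3 and 0.16 (standard error 0.18, adjusted p = 0.577) in E5, and E5 was lower than E3 (-1.17, standard error 0.17, adjusted p = 0.000607). Tubb2a, at a mean of 3.15 CPM in WT cells, was not called in any comparison with all libraries in the fit. How counts divide between Tubb2a and Tubb2b was not examined.

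Tuba8 (ENSMUSG00000030137.9, chromosome 6 from 121187655 to 121203813), an alpha-tubulin with restricted expression in tissues, changed in the opposite direction to the abundant isotypes. Tuba8 was measured at 1.50, 1.56 and 1.60 CPM in the WT libraries, 0.0800, 0.0634 and 0.132 CPM in KO clone E3 and 0.883, 0.933 and 0.740 CPM in KO clone E5. The E3 values rest on 4, 3 and 6 counts, and the 3 lines did not overlap. Against WT, the log2 fold change was -4.05 (standard error 0.28, adjusted p = 1.03e-05) in E3 and -0.87 (standard error 0.21, adjusted p = 0.0138) in E5, and E5 exceeded E3 by 3.19 (standard error 0.30, adjusted p = 2.77e-05). The E5 call against WT was lost without WT replicate 2, WT replicate 3 or E5 replicate 3. Of 20 tested neighbouring genes on chromosome 6, 6 were lower and 1 higher in E3 than in WT (14.7% and 15.7% of all genes). In E5 against WT, 3 were higher and 1 lower (8.96% and 11.7%). In E5 against E3, 9 were higher and 0 lower (14.7% and 17.2%). The part of the neighbours in the Tuba8 result was not tested.

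**Figure D3:**
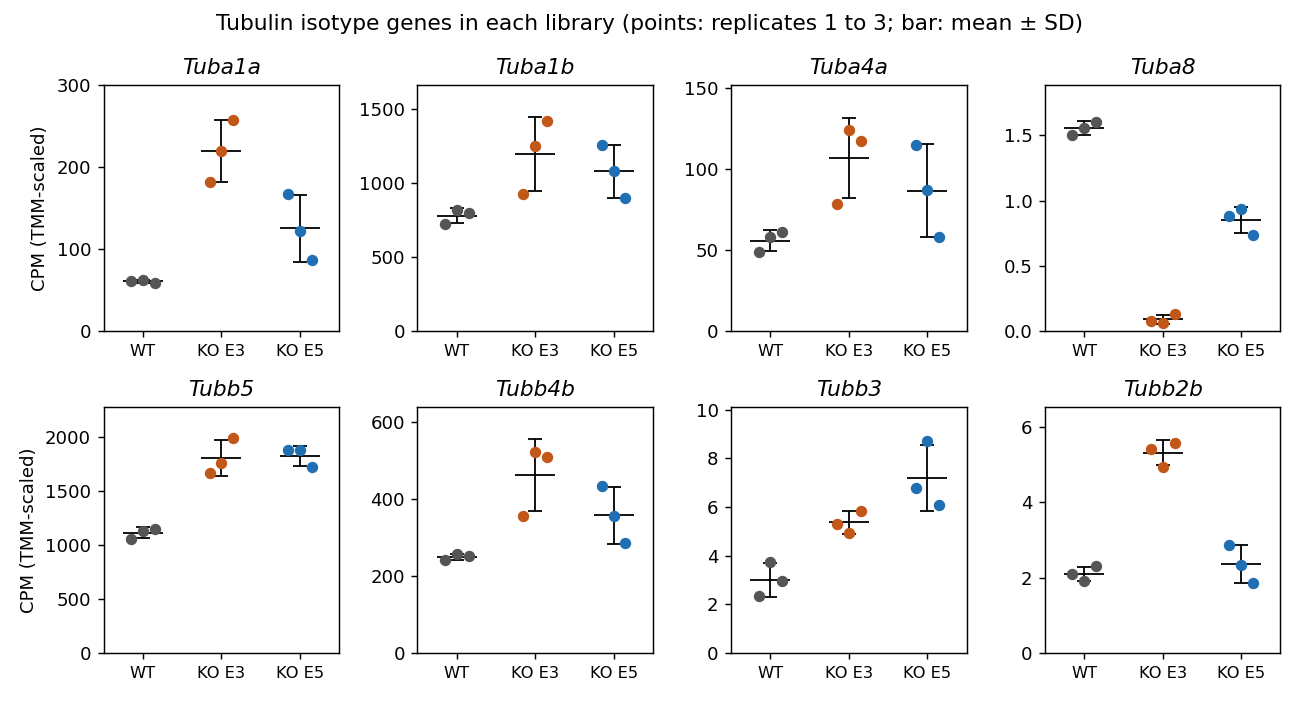
CPM of 8 tubulin genes in each of the 9 libraries, 1 panel per gene on its own axis starting at 0, with bars for the mean ± SD of 3 libraries. Tubb5 and Tuba1a lie above WT in every KO library, and Tuba8 lies below WT in every KO library.

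Most alpha- and beta-tubulins had their lowest level in the same library of a line. Of the 10 alpha- and beta-tubulins above 1 CPM in every line, 8 were lowest in WT replicate 1 among the WT libraries, 8 were lowest in E3 replicate 1, and 7 highest in E3 replicate 3. In clone E5, 8 were highest in replicate 1 and all 10 were lowest in replicate 3. The 8 CCT genes above 1 CPM were likewise all lowest in E3 replicate 1, and 7 of them were highest in E3 replicate 3. Replicates have no order, and these ranks are described only.

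Within the alpha-tubulin pool, Tuba1a took a larger share in clone E3. Given per kilobase of exon, Tuba1a was 10.5% ± 0.842 of alpha-tubulin mRNA in WT cells, 22.2% ± 1.09 in clone E3 and 14.8% ± 2.06 in clone E5 (mean ± SD, n = 3). Tuba1b was 69.5% ± 0.193 in WT cells, 62.1% ± 0.593 in E3 and 67.3% ± 1.81 in E5, and Tuba1c was 16.6% ± 0.474, 12.2% ± 0.339 and 14.4% ± 0.738. Tubb5 held 67.0% ± 0.362 of beta-tubulin mRNA in WT cells, 65.9% ± 3.51 in E3 and 69.9% ± 3.54 in E5. Tubb4b held 24.1% ± 0.642, 26.8% ± 2.95 and 21.7% ± 2.52. These shares are descriptions without a test. With canonical transcript lengths, a choice made after seeing the data, the Tuba1a share was 9.84%, 20.9% and 13.9%, and with no division by length 5.90%, 13.1% and 8.45% in WT, E3 and E5. The reading of Tuba1a against Tuba1b remains subject to their near-identity.

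**Figure D4:**
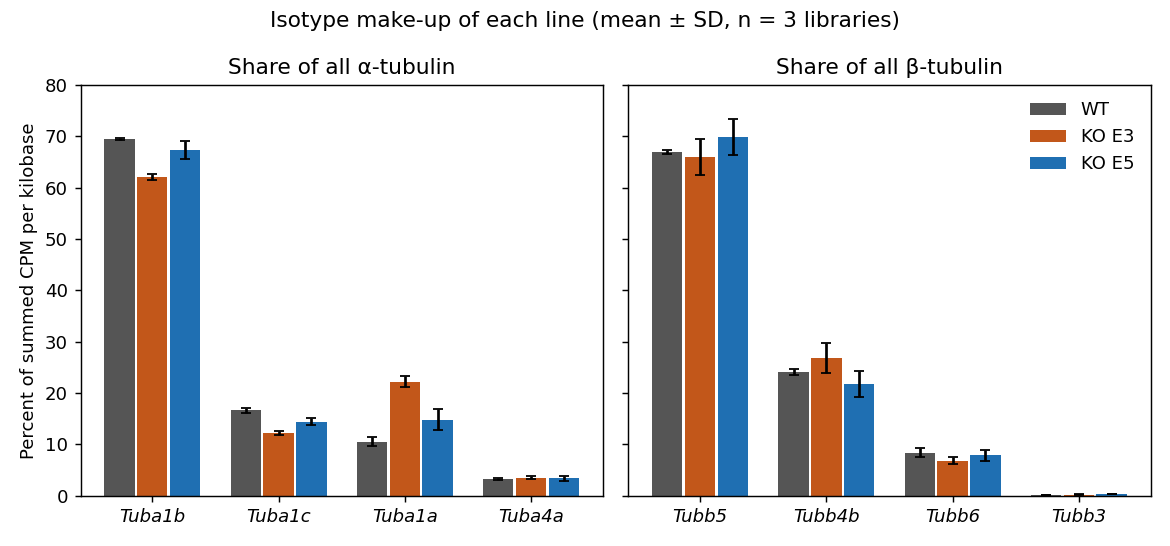
Share of each isotype among alpha-tubulin mRNA (per kilobase of exon) and among beta-tubulin mRNA, as the mean ± SD of 3 libraries of each line. The Tuba1a share is larger in clone E3 than in WT cells, and Tubb5 and Tuba1b remain the main isotypes in every line.

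Of the gamma-tubulins, Tubg1, the ubiquitous form, was not called in either clone (log2 fold change 0.21 in E3 and 0.01 in E5), whereas Tubg2 (ENSMUSG00000045007.10, chromosome 11 from 101046733 to 101052613) fell in both. Tubg2 was measured at 7.71, 8.39 and 8.10 CPM in the WT libraries, 5.32, 3.80 and 6.003 CPM in KO clone E3 and 4.48, 4.86 and 4.51 CPM in KO clone E5. WT lay above all KO libraries, and the clones overlapped. Tubg2 had a log2 fold change of -0.68 (standard error 0.16, adjusted p = 0.00963) in E3 and -0.81 (standard error 0.16, adjusted p = 0.00563) in E5. Of the 10 tested genes of the gamma-tubulin ring complex and other tubulins, 1 rose (Tubd1, 0.56, standard error 0.15, adjusted p = 0.0182) and 1 fell (Tube1, -0.36, standard error 0.11, adjusted p = 0.0266) in E3, and 0 changed in E5, where 2 had an unadjusted p under 0.05 and DESeq2 also called 0. The smallest adjusted p outside these was that of Mzt1, a small subunit of the ring complex, with a log2 fold change of -0.27 (standard error 0.10, adjusted p = 0.0939) in E5. Over all genes, 15.7% were higher and 14.7% lower in E3, and 8.96% and 11.7% in E5.

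None of the 9 CCT genes passed the edgeR test in E3, where log2 fold changes ran from -0.29 to 0.12 with a median of -0.09; 1 had an unadjusted p under 0.05, and DESeq2 called 1, Cct8. In clone E5 the median was 0.18. With all libraries and all 3 lines in the fit, edgeR called 1 gene, Cct8, against 3 by DESeq2 (Cct4, Cct7 and Cct8). Between the clones, 6 members were higher in E5 than in E3 (16.2%, against 14.7% of all genes) and 4 lower (10.8%, against 17.2%), or 3 and 4 with upper-quartile scaling, and 2 passed with an absolute log2 fold change above 1 (Tuba8 and Tubb2b; 5.41%, against 11.0%). The 6 higher members were Cct2, Cct3, Cct7, Cct8, Tbce and Tuba8. Cct8 was measured at 580.2, 616 and 613 CPM in the WT libraries, 444, 522 and 518 CPM in KO clone E3 and 795, 768 and 714 CPM in KO clone E5. Cct8 (ENSMUSG00000025613.14, chromosome 16 from 87280214 to 87292761), which encodes the theta subunit, differed among all 3 lines without overlap. Its log2 fold change was -0.29 (standard error 0.10, adjusted p = 0.0509) in E3, 0.33 (standard error 0.10, adjusted p = 0.0381) in E5 and 0.62 (standard error 0.10, adjusted p = 0.00105) between E5 and E3. The E5 call against WT was lost when any 1 of the WT or E5 libraries was left out.

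Cct2 was measured at 826, 834 and 819 CPM in the WT libraries, 668, 669 and 811 CPM in KO clone E3 and 905, 945 and 953 CPM in KO clone E5. Cct2, the beta subunit, lay below WT in all E3 libraries and above WT in all E5 libraries, and the difference of E5 from E3 was 0.38 (standard error 0.10, adjusted p = 0.0155). Cct3 was measured at 435, 468 and 442 CPM in the WT libraries, 353, 429.6 and 463 CPM in KO clone E3 and 565, 534 and 499 CPM in KO clone E5. E5 lay above both other lines for this gamma subunit, E3 overlapped WT, and E5 minus E3 was 0.36 (standard error 0.11, adjusted p = 0.035). Cct7 was measured at 438, 480.0 and 465 CPM in the WT libraries, 377, 425 and 502 CPM in KO clone E3 and 607, 587 and 546 CPM in KO clone E5. For Cct7, the eta subunit, E5 again lay above both other lines and E5 minus E3 was 0.42 (standard error 0.12, adjusted p = 0.0198). The differences of Cct2, Cct3 and Cct7 were no longer called with only both clones fitted, with upper-quartile scaling, or without E5 replicate 2. That of Cct3 was also lost without any 1 of the WT libraries, E3 replicate 1 or E5 replicate 1, and that of Cct7 without either of the latter libraries. The other subunits, Tcp1, Cct4, Cct5, Cct6a and the weakly expressed Cct6b, were not called by edgeR in any comparison with all libraries in the fit, with log2 differences of E5 from E3 between -0.58 and 0.23. Cct4 was called as higher in E5 than in WT by DESeq2, with only these lines in the fit and without E3 replicate 3. Cct2, Cct3 and Cct7 were also called in E5 against WT in the latter fits. Cct7 was called there by DESeq2 and without E3 replicate 1 as well. Cct4 and Cct5 were called between clones without E3 replicate 3.

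The phosducin-like gene Pdcl, whose protein works with CCT on other substrates, was higher in E3 than in both other lines. Pdcl was measured at 58.5, 51.2 and 47.3 CPM in the WT libraries, 78.4, 73.6 and 73.3 CPM in KO clone E3 and 57.0, 53.7 and 54.5 CPM in KO clone E5. E3 did not overlap WT or E5, which overlapped each other. The log2 fold change was 0.52 (standard error 0.10, adjusted p = 0.00292) in E3 and 0.07 (standard error 0.10, adjusted p = 0.655) in E5, and E5 minus E3 was -0.45 (standard error 0.10, adjusted p = 0.00626). Pdcl3 and Txndc9 were not called.

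All 6 prefoldin genes stayed below the threshold in each comparison with all libraries in the fit, by edgeR and by DESeq2, and 0 of 6 had an unadjusted p under 0.05. Their log2 fold changes ran from -0.28 to 0.31 in E3 and from -0.27 to 0.19 in E5. In clone E3 all 6 were highest in replicate 3.

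The 5 tubulin cofactors were likewise not called against WT by edgeR with TMM scaling, the filter on low counts and all 9 libraries. In that fit 4 in E3 and 2 in E5 had an unadjusted p under 0.05. Upper-quartile scaling called Tbcd in both clones, and the fit without a filter called Tbcc in E3. With only E5 and WT in the fit, Tbca, Tbcd and Tbce were called. Leaving out E3 replicate 1 called Tbcb and Tbcc in E3, and leaving out E3 replicate 2 called Tbcc. DESeq2 called 2 in each clone, Tbcd and Tbce. These genes, which act on the beta and alpha chain respectively, differed between clones in opposite directions. Tbcd was measured at 135, 140.3 and 138 CPM in the WT libraries, 160.3, 163 and 156 CPM in KO clone E3 and 119, 121 and 109 CPM in KO clone E5. The lines did not overlap, with E3 highest and E5 lowest, and E5 minus E3 was -0.46 (standard error 0.08, adjusted p = 0.00226). Tbce was measured at 37.5, 41.2 and 39.0 CPM in the WT libraries, 34.5, 32.3 and 35.0 CPM in KO clone E3 and 47.1, 44.9 and 46.7 CPM in KO clone E5. Here the order was reversed, again without overlap, and E5 minus E3 was 0.45 (standard error 0.08, adjusted p = 0.00284). For Tbcb and Tbcc, E3 replicate 3 alone was far above the rest, with 61.5 CPM against 34.4 and 36.1 CPM for Tbcb and 39.3 against 21.8 and 21.8 CPM for Tbcc.

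The counts were repeated without E3 replicate 3. In E3 against WT, 7 alpha- and beta-tubulins were again higher and 1 lower, while 3 CCT and 3 prefoldin genes were lower where 0 had been called with all libraries. In all, without that library, 9 members were higher and 10 lower in E3 than in WT (against 21.8% and 21.5% of all genes), 14 higher and 4 lower in E5 than in WT (20.8% and 21.2%), and 14 higher and 4 lower in E5 than in E3 (22.4% and 21.7%). The 3 lines share 1 estimate of the spread, so calls between E5 and WT also changed. In E3 against WT, the prefoldin genes Pfdn2 (-0.43, standard error 0.06, adjusted p = 0.000215), Pfdn4 (-0.48, standard error 0.09, adjusted p = 0.00136) and Pfdn6 (-0.23, standard error 0.07, adjusted p = 0.0153) were then lower, as were Cct2, Cct5, Cct8, Tbca and Tbce. In E5 against WT, 7 alpha- and beta-tubulins were higher and 1 lower without it. Of the 9 CCT genes, 5 were then higher in E5 than in WT (Cct2, Cct3, Cct4, Cct7 and Cct8) and 0 lower. Tbca and Tbce were also higher in E5 than in WT, and Tbcd, Pfdn4 and Tubg2 lower. In E3 against WT with all libraries, Pfdn6 stood at 0.05 and Tbca at 0.03 on the log2 scale. Their direction there thus depends on which libraries are in the fit. Between clones, 6 of 9 CCT genes were then higher in E5 than in E3, with a median of 0.35 and with Cct4 and Cct5 among them, and 3 of 6 prefoldin genes, with a median of 0.24. In the reduced fit Tubb5 was at 0.62 and 0.72 and Tuba1a at 1.73 and 1.05 for E3 and E5 on the log2 scale.

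**Figure D5:**
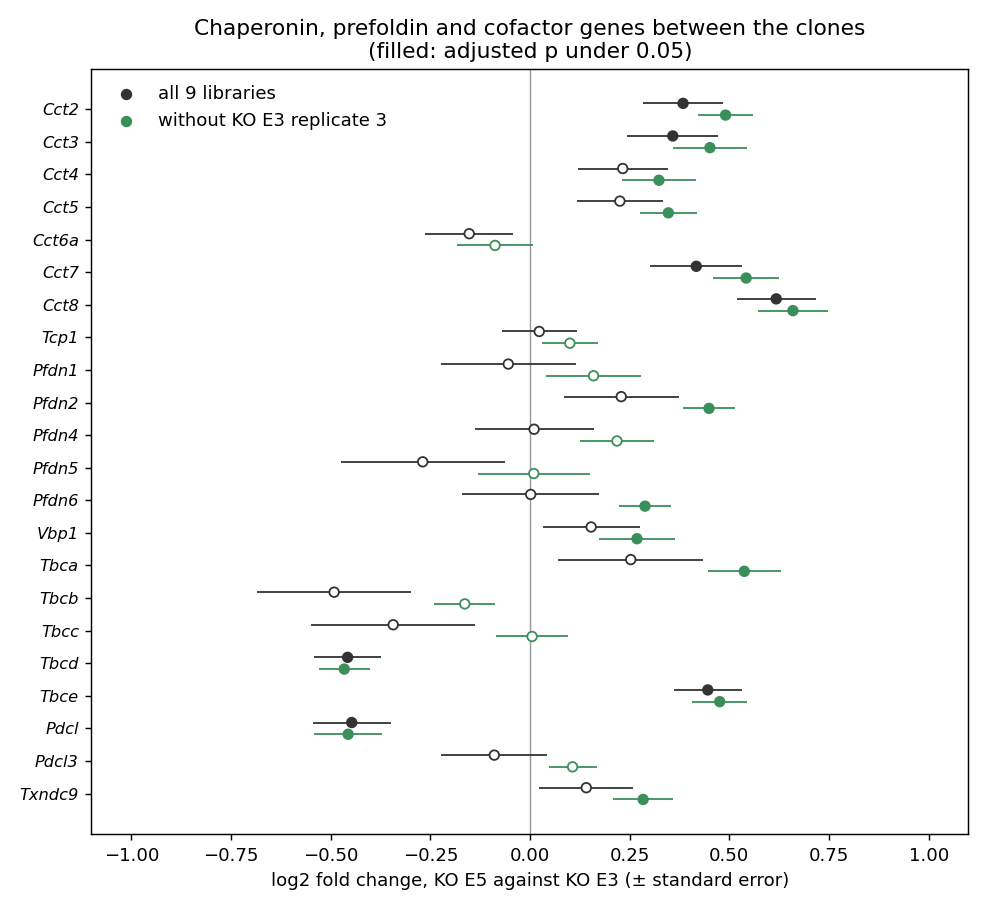
Log2 difference of clone E5 from clone E3, with its standard error, for chaperonin, prefoldin and cofactor genes with all libraries and without E3 replicate 3. Cct8 lies at 0.62 with all libraries and 0.66 without that replicate, and Tbca moves from 0.25 to 0.54.

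Heat shock factor drives several chaperone genes by binding heat shock elements, so the promoters of the members were searched for GAANNTTC and TTCNNGAA, each of which is its own reverse complement and so is found on both strands. RefSeq promoters of the GRCm38.p6 assembly, from 250 bases before to 50 after the start, were found for 34 of the 40 members. At least 1 element stood in 6 of the 34 (17.6%), against 4587 of 27025 promoters of all genes (17.0%). For CCT genes it was 3 of 8. A match is a description of letters, not evidence of a bound site. The 6 matches are shown with 30 bases each, with the element in capitals, at chr10:117063399-117063428 (minus strand) for Cct2, chr15:31601862-31601891 (minus strand) for Cct5, chr5:129787369-129787398 (plus strand) for Cct6a, chr17:35838519-35838548 (minus strand) for Tubb5, chr15:99029689-99029718 (plus strand) for Tuba1c and chr2:37359480-37359509 (minus strand) for Pdcl.
Cct2: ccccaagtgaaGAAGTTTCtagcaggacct
Cct5: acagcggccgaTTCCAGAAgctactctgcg
Cct6a: gcgtaagacttTTCGAGAAgaccccgcaga
Tubb5: tgaggacatttTTCATGAAaaaataaaatc
Tuba1c: gagggctagccTTCTAGAAggcgggagtaa
Pdcl: tgagttacttaTTCTTGAAgaagttaatgt

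With all libraries in the fit, Tubb5 and Pdcl of these 6 genes changed against WT, and Cct2 passed the test between clones but not against WT. Without E3 replicate 3, Cct2 and Cct5 were lower in E3 than in WT, and Cct2 was higher in E5 than in WT. Among 12 tested genes of the heat shock system, 5 rose and 2 fell in E3 and 4 rose and 1 fell in E5, with medians of 0.31 and 0.14. Over all genes, 15.7% rose and 14.7% fell in E3, and 8.96% and 11.7% in E5. For Hspa8, a constitutive chaperone, the change on the log2 scale was 0.64 (standard error 0.11, adjusted p = 0.00184) in E3 and 0.77 (standard error 0.11, adjusted p = 0.000795) in E5. The inducible Hspa1b, whose near-copy Hspa1a can share its reads, rose in E3 (1.63, standard error 0.24, adjusted p = 0.000686) and was at 0.83 (standard error 0.24, adjusted p = 0.0346) in E5, and the co-chaperone Dnajb1 was at 0.65 (standard error 0.10, adjusted p = 0.00101) in E3 and 0.18 (standard error 0.10, adjusted p = 0.248) in E5.

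Among relatives of CCT, prefoldin and the cofactors, 1 of 11 rose and 1 fell in E3, and 2 rose and 1 fell in E5. The shares over all genes were 15.7% higher and 14.7% lower in E3, and 8.96% and 11.7% in E5. Uri1, a prefoldin-like protein, had a log2 fold change of -0.59 (standard error 0.09, adjusted p = 0.00106) in E3, and the chaperonin-like Bbs12 was at -0.08 (standard error 0.13, adjusted p = 0.668) in E3 and 0.60 (standard error 0.13, adjusted p = 0.00739) in E5. Bbs10, of the same family, was at 0.57 (standard error 0.13, adjusted p = 0.0124) in E5. Ttc5, which recognizes nascent tubulin for mRNA decay, was at -0.17 and -0.16 and was not called.

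Of 26 tested microtubule-binding proteins, 9 rose and 1 fell in E3, with a median of 0.00, and 3 rose and 3 fell in E5, with a median of 0.05. Beside these proteins and the enzymes below, 15.7% of all genes rose and 14.7% fell in E3, and 8.96% and 11.7% in E5. Map1a, a structural microtubule-associated protein, had a log2 fold change of -2.56 (standard error 0.30, adjusted p = 0.000196) in E5. Map2 was at 2.54 (standard error 0.28, adjusted p = 0.000126) in E3 and 1.64 (standard error 0.28, adjusted p = 0.00201) in E5, and the microtubule-binding kinase Dclk1 at 2.60 (standard error 0.38, adjusted p = 0.000649) in E3. Across E3 replicates 1 to 3, Map2 was at 10.9, 10.2 and 4.86 CPM and Dclk1 at 1.92, 2.85 and 1.32 CPM. Among 17 tubulin-modifying enzymes, 3 rose and 2 fell in E3 and 2 rose and 1 fell in E5. The glutamylase Ttll7 fell in E3 (-5.13, standard error 0.40, adjusted p = 1.95e-05) and was higher in E5 than in E3 (5.58, standard error 0.39, adjusted p = 3.86e-06). Its E3 values rest on 4, 4 and 0 counts. Svbp, a partner of the detyrosinating vasohibins, was at 0.93 (standard error 0.20, adjusted p = 0.0055) in E3, with E5 minus E3 at -1.36 (standard error 0.20, adjusted p = 0.000652), and the deacetylase Hdac6 was at 0.54 (standard error 0.10, adjusted p = 0.00278) in E5.

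Beside the lists of this paragraph, 15.7% of all genes rose and 14.7% fell in E3, and 8.96% and 11.7% in E5. Actin and other CCT substrates gave 1 rise in E3 and 1 rise and 1 fall in E5 among 7 tested. The fall was of smooth muscle actin Acta2 (-4.12, standard error 0.33, adjusted p = 1.34e-05), for which the E5 values rest on 3, 4 and 6 counts. Cdc20, an activator of the anaphase-promoting complex, rose in E3 (0.54, standard error 0.14, adjusted p = 0.0142), while its relative Fzr1 was at 0.41 (standard error 0.11, adjusted p = 0.0279) in E5. Of 14 proliferation genes, 6 rose and 1 fell in E3, with a median of 0.34, and the 1 that changed in E5 rose, with a median of 0.14. Ccnb2, a mitotic cyclin, was at 0.73 (standard error 0.13, adjusted p = 0.00205) in E3, the replication gene Mcm2 at -0.46 (standard error 0.10, adjusted p = 0.00558) in E3 and the thymidylate gene Tyms at 0.54 (standard error 0.12, adjusted p = 0.0081) in E3. The part of these genes in the tubulin result was not tested.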

How the data were processed

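Messenger RNA of 9 LLC libraries was sequenced as pairs of reads. Per the submitters' notes, FastQC, Trimmomatic and STAR were used with the GRCm39 build. The authors deposited 1 column of unnormalized counts for each library. The counter, its strand setting and its annotation release are not given in the sources used here. Totals were 44257404 to 55095219 counts per library, which leaves counting error small above a few CPM.

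From the deposited counts, members were selected by gene name. The quasi-likelihood test of edgeR 4.0.16 in R 4.3.3 was run on TMM-scaled counts of the 14593 genes kept by filterByExpr (minimum count 10, minimum total 15), with the 3 lines in 1 fit and Benjamini-Hochberg adjustment over all genes tested. Standard errors were derived from F and the fold change. The test was tried on simulated counts first. Alternatives were DESeq2 (1.42.0) and its size factors, upper-quartile scaling, 2 other filters, only the 2 groups compared, a replicate block and each library left out. Isotype shares used exon-union lengths; canonical transcript lengths were added after seeing the data.

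Members and lists were chosen with earlier results of these data known. Every member called in at least 1 comparison is named with its values, and 3 genes of each other list with the smallest adjusted p are named, plus Cd47 as a check. No protein table was at hand, so coding sequences were compared instead of protein sequences. The coding ends of the alpha-tubulins are not reported here.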

Additional observations from a re-analysis of the deposited data

Results flagged for a closer look

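Of the 37 members tested, 10 differed between the KO clones (27.0%, against 31.9% of all genes). The test was of the difference itself, edgeR's quasi-likelihood test of E5 minus E3 on the log2 scale. E5 minus E3 was -0.81 for Tuba1a, -1.17 for Tubb2b, -0.46 for Tbcd and -0.45 for Pdcl. Tuba8 was higher in E5 by 3.19, Cct2 by 0.38, Cct3 by 0.36, Cct7 by 0.42, Cct8 by 0.62 and Tbce by 0.45.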

How the results depend on the processing

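With all libraries 10 members were called in E3 against WT, 6 in E5 against WT and 10 in E5 against E3, beside 30.5%, 20.6% and 31.9% of all genes. Leaving out 1 library at a time gave 8 to 19, 4 to 18 and 6 to 18, with the highest each time without E3 replicate 3, where 43.2%, 42.0% and 44.1% of all genes were called, and 6 without E5 replicate 2, where 21.7% were. The 8 came without WT replicate 1 (21.5% of all genes) and the 4 without WT replicate 2 or 3 (11.9% and 12.9%). For E5 against WT, DESeq2 called 14 members (25.2% of all genes) and a fit of only the 2 groups 19 (46.8%). In E3 against WT, Pfdn6 ran from -0.23 to 0.18 and Tbca from -0.25 to 0.15 as single libraries were left out, with both called, as lower, only without E3 replicate 3. The cause of these shifts was not tested. Upper-quartile scaling moved the median of all genes to 0.09 in E3 and -0.10 between clones. With it, 3 members were higher and 4 lower between clones, beside 32.6% of all genes called. In E5 against WT it gave 3 of each, beside 19.9% of all genes. Replicate numbers did not pair the samples (correlations of -0.17 to 0.05 between same-numbered libraries). With the number as a replicate block, 10, 5 and 9 members were called, beside 25.1%, 15.8% and 26.6% of all genes. The calls of Cct8 in E5 against WT and Cct3 between clones were lost in that fit. The Tuba1a share without division by length was 5.90% in WT and 13.1% in E3. Depth limits chiefly Tubb4a, Cct6b and, in both clones, Tuba8, which lay below 1 CPM.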

Other observations

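The genes next to the called members on the chromosome were examined to show whether changes were local. The 18 tested genes around Tuba1a had a median log2 fold change of 0.00 in E3 and 0.03 in E5, and the 20 around Tubb5 had medians of 0.19 and 0.11. Around Cct8 and Cct2 the medians between clones were 0.23 and 0.31, beside differences of 0.62 and 0.38 for the genes themselves, and around Tbce 0.36 beside 0.45. Around Pdcl it was -0.04 beside -0.45. The neighbours' part in these differences was not tested.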
